A study of Drosophila melanogaster with 6 samples.

Results

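The mucins and peritrophic matrix genes described here are 10 genes chosen by name: *Peritrophin-15a*, *Peritrophin-15b*, *Crys*, *Muc18B*, *Muc26B*, *Muc55B*, *Muc68E*, *Muc96D*, *Mur18B* and *Mur29B*. They are represented by 11 of the 18769 probe sets of the array that are not Affymetrix controls, since *Muc96D* has 2 probe sets and each of the other genes has 1. *Crys* was found through its RefSeq accession, because the deposited table lists it under the older symbol *Cry*, with the title drosocrystallin. Expression was measured on Drosophila Affymetrix arrays in whole midguts of 7-day-old adult females, with 3 samples of wild type and 3 of *Apc1* mutants, each a pool of midguts on 1 array. The mutants carried the null allele *Apc1Q8* in every tissue and whole midguts were measured, so no result can be assigned to 1 cell type. The submitters' design text names w1118 as the control strain and the methods of the study name Canton S, and genotype and strain background cannot be told apart. The values are log2 expression values from RMA, a method that corrects, scales and summarizes the probes of a probe set, and they ran from 0.53 to 13.38. Array medians lay between 2.54 and 2.60.

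The peritrophic matrix is a sleeve of chitin and glycoproteins that lines the lumen of the fly midgut and keeps food particles, microbes and their toxins off the epithelium. In Drosophila it is formed largely at the cardia, the valve between foregut and midgut, and enterocytes along the gut add to it. Peritrophins bind its chitin fibres through cysteine-rich domains, and mucins carry long stretches of serine and threonine to which sugars are attached, which makes them hold water as a gel.

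The genes of this matrix did not move together in *Apc1* mutant midguts. Of the 11 probe sets, 4 were higher in mutants (*Muc18B*, *Muc55B*, *Muc68E* and *Mur29B*), 3 were lower (*Peritrophin-15a*, *Peritrophin-15b* and *Mur18B*) and 4 did not pass the test (*Crys*, *Muc26B* and both probe sets of *Muc96D*). A probe set was called at an adjusted p under 0.05, from limma with Benjamini-Hochberg adjustment across the 18769 probe sets. Under this rule 11.0% of all probe sets were called, 6.82% higher and 4.22% lower. The 7 called probe sets are 63.6% of the 11, and they are the same 7 whose values did not overlap between the genotypes, which held for 31.3% of all probe sets. The shares called depend on brightness. With probe sets with a mean under 5 left out, 1631 of 5302 were called. Of the 11, 7 were then tested, with 2 called higher and 3 lower. The genes were chosen with earlier results of these data known, so these shares are descriptions. The median size of the difference, without its sign, was 1.29 on the log2 scale for the 11 probe sets and 0.19 over all probe sets. The signed median was 0.20, against -0.02 over all. With a change of more than 2-fold asked for as well, 3 were higher and 3 lower, where 5.02% of all probe sets passed (2.63% higher and 2.39% lower). With 3 arrays per genotype, the smallest p that exact permutation can give for 1 probe set is 0.1, two-sided. In pooled tissue, fewer cells of a type and less RNA per cell cannot be told apart.

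**Figure D1:**
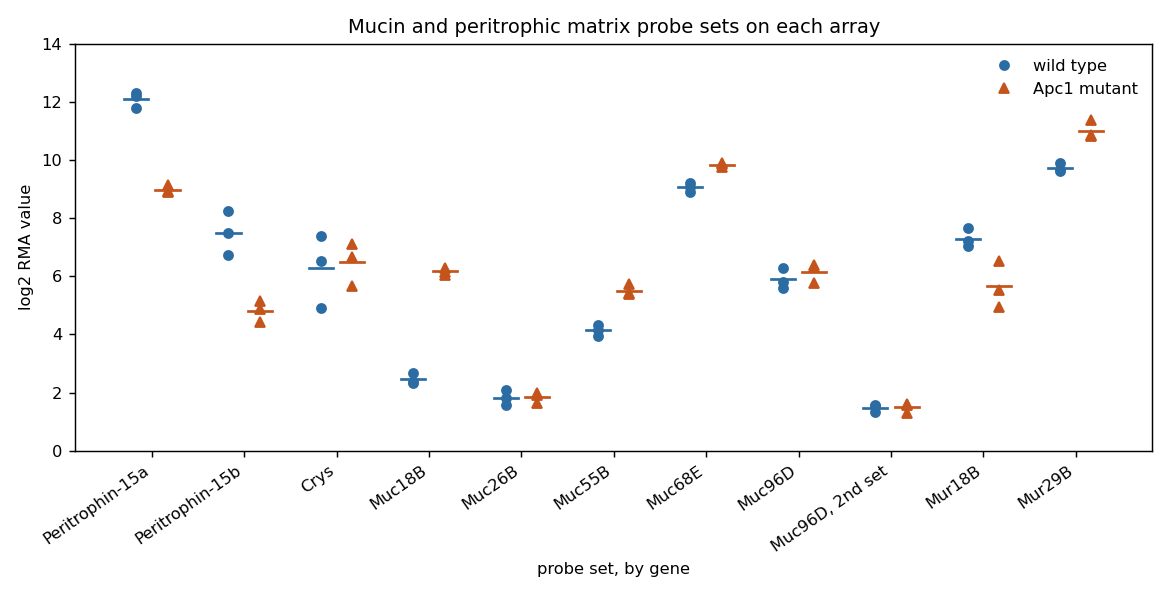
Log2 RMA values of the 11 probe sets, named by gene on the horizontal axis, with a circle for each wild-type array, a triangle for each *Apc1* mutant array and a line at each mean. *Muc18B* lies between 2.32 and 2.68 in wild type and between 6.06 and 6.29 in mutants, while *Peritrophin-15a* goes from 11.80 to 12.31 down to 8.89 to 9.13.

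*Peritrophin-15a* encodes a short secreted protein with a chitin-binding domain, named after a peritrophin of the sheep blowfly. Its values were 12.22, 12.31 and 11.80 on the wild-type arrays and 9.13, 8.89 and 8.94 on the mutant arrays. Every mutant value lay at least 2.67 below every wild-type value. The mean fell by 3.12 on the log2 scale (standard error 0.16, limma adjusted p = 4.83e-05), so that the level in mutants was 8.72-fold lower (95% interval 6.73 to 11.3). *Peritrophin-15b* lies next to *Peritrophin-15a* on chromosome arm 2L, with no annotated gene between them, and encodes a protein of the same kind. It was measured at 7.48, 8.26 and 6.75 in wild type and at 4.88, 4.43 and 5.15 in mutants. The groups were separated by a gap of 1.59, although the wild-type arrays themselves spanned 1.51. The mean fell by 2.67 on the log2 scale (standard error 0.37, limma adjusted p = 0.00419), which is 6.38-fold (95% interval 3.51 to 11.6). These neighbours thus fell by similar amounts, and their intervals overlap. Whether their probes cross-hybridize was not tested. Their flanking measured genes were not called, with *lectin-29Ca* at a difference of -0.01 (limma adjusted p = 0.962) and *CG13385* at -0.10 (limma adjusted p = 0.668). Both were at the low end in wild type, with means of 1.23 and 1.22, so a fall in them could hardly be seen.

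*Crys* encodes drosocrystallin, first known as a protein of the corneal lens and later as a component of the adult peritrophic matrix that protects flies against gut pathogens and their pore-forming toxins. It varied more within each genotype than between them. The wild-type values were 7.38, 4.92 and 6.54, and the mutant values were 6.65, 5.67 and 7.13. The mutant values lie within the span of the wild-type values. The difference was 0.20 (standard error 0.62, limma adjusted p = 0.877), and its 95% interval ran from -1.25 to 1.65, so that neither a rise nor a fall of more than 2-fold can be set aside. The wild-type SD of 1.25 compares with a median of 0.18 over all probe sets. Wild type replicate 2, which had the lowest *Crys* value, also had the highest summed fat body markers, at 3500 against 962 and 1470 on the other wild-type arrays. *Apc1* mutant replicate 2, with the lowest *Crys* value among the mutants, had the lowest such sum of all 6 arrays, at 139. On every array *Yp1* was the brightest of these fat body markers. Wild type replicate 2 also had the highest summed ovary and eggshell markers, at 206 against 65.3 and 41.2 on the other wild-type arrays. Without wild type replicate 2 the difference was -0.47 (limma adjusted p = 0.578). The part of fat body or ovary RNA in the *Crys* values was not tested.

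Among the secreted mucins, *Muc18B* showed the largest difference of the 11 probe sets. It stood at 2.68, 2.32 and 2.37 in wild type, near the median of the arrays and thus toward the bottom of the range, and at 6.06, 6.29 and 6.16 in mutants. The 3 arrays of each genotype lay within 0.36 and 0.24 of each other, and the groups were 3.38 apart. The mean rose by 3.71 (standard error 0.14, limma adjusted p = 9.46e-06), or 13.1-fold (95% interval 10.5 to 16.4). Because the wild-type values are close to the low end, the size of this fold depends on the background correction, which the methods do not describe. *Muc55B* rose from 4.17, 4.31 and 3.95 to 5.42, 5.38 and 5.73. Its groups were 1.07 apart, with SDs of 0.18 and 0.19. The rise was 1.37 (standard error 0.15, limma adjusted p = 0.00144), or 2.58-fold (95% interval 2.03 to 3.29).

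*Muc68E* was well above the low end in both genotypes and rose by less than 2-fold. Its values were 9.20, 8.90 and 9.07 in wild type and 9.89, 9.88 and 9.78 in mutants. The mutant arrays were within 0.11 of each other and all of them lay above the wild-type arrays. The rise of 0.79 (standard error 0.12, limma adjusted p = 0.00643) corresponds to 1.73-fold (95% interval 1.42 to 2.11).

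*Muc26B* and *Muc96D* did not pass the test. All 6 values of *Muc26B* lay between 1.58 and 2.09, at the low end, and the difference was 0.02 (95% interval -0.36 to 0.41, limma adjusted p = 0.951). At values this low, a change in a scarce transcript may not be detectable. The probe sets of *Muc96D* disagreed in level. The brighter one was between 5.60 and 6.29 in wild type and between 5.78 and 6.39 in mutants, with a difference of 0.26 (95% interval -0.27 to 0.79, limma adjusted p = 0.536). Its Affymetrix name carries the suffix that marks probes able to hybridize to other transcripts as well. The second probe set was between 1.29 and 1.60 on all 6 arrays, with a difference of 0.01 (95% interval -0.30 to 0.33, limma adjusted p = 0.965). What the brighter set measures beside *Muc96D* was not tested. Of the 10 genes, *Muc96D* is the only one on chromosome arm 3R, which also carries *Apc1*, listed as *Apc*, with 297 measured genes between them.

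The mucin-related genes *Mur18B* and *Mur29B*, which encode proteins with mucin-like repeats, moved in opposite directions. *Mur18B* was 7.22, 7.66 and 7.03 in wild type and 4.93, 6.54 and 5.53 in mutants. The mutant arrays spanned 1.61, and the highest of them lay 0.49 below the lowest wild-type array. The mean fell by 1.64 on the log2 scale (standard error 0.38, limma adjusted p = 0.0354), or 3.11-fold (95% interval 1.68 to 5.77). This call was lost in 5 of the 6 fits with 1 array left out (adjusted p between 0.0647 and 0.121). It was kept without *Apc1* mutant replicate 2, the highest of the mutant arrays, with a log2 difference of -2.07 (limma adjusted p = 0.00528). *Mur29B* rose from 9.91, 9.62 and 9.66 to 10.84, 10.85 and 11.38. No value overlapped, and the gap was 0.93. The rise was 1.29 (standard error 0.18, limma adjusted p = 0.00401), or 2.45-fold (95% interval 1.84 to 3.26). *Mur29B* lies on the same chromosome arm as the *Peritrophin-15* pair, with 20 annotated genes between it and *Peritrophin-15b*.

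**Figure D2:**
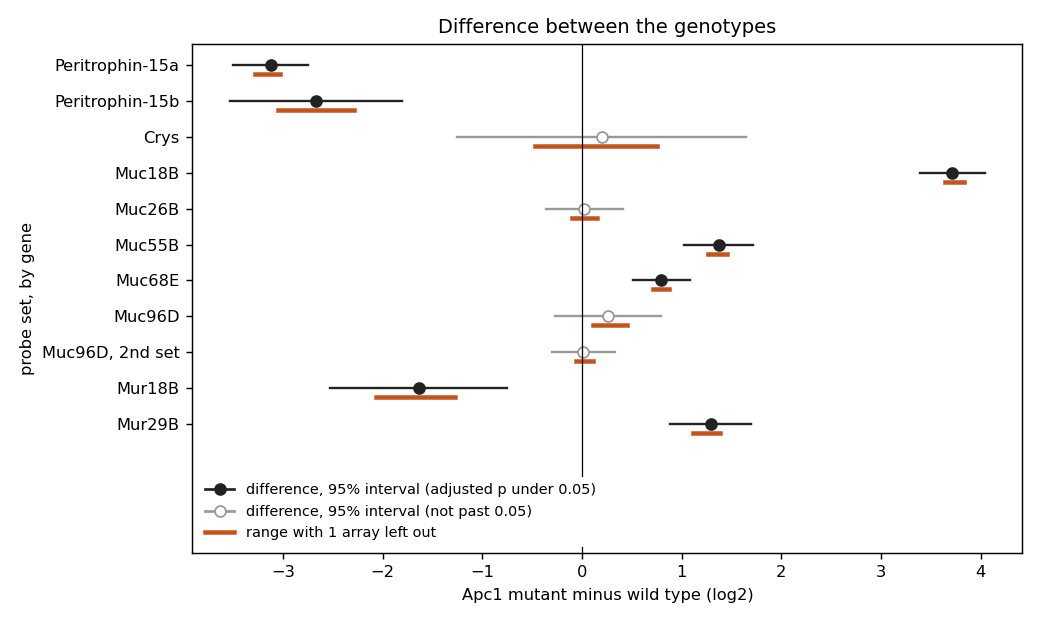
Difference between *Apc1* mutant and wild type on the log2 scale for each probe set (points), with the 95% interval from limma (thin lines) and the range of the difference with 1 array left out (thick lines). Filled points have an adjusted p under 0.05. The intervals of the 7 called probe sets do not reach 0, and the range for *Crys* with 1 array left out, -0.47 to 0.75, lies on both sides of it.

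*Muc18B* and *Mur18B* are neighbours on the X chromosome, with no annotated gene between them, and they differed in direction: *Muc18B* rose by 3.71 while *Mur18B* fell by 1.64 on the log2 scale. The genes on the outer sides of this pair were at the low end in both genotypes. *CG14195*, next to *Mur18B*, had a difference of 0.05 (limma adjusted p = 0.824) and *CG7884*, next to *Muc18B*, of 0.02 (limma adjusted p = 0.965). Over all 10 genes there were 16 nearest measured neighbours outside the set, of which 10 had both group means under the lowest array median, where a change could hardly be seen. Of the 16, 1 was called, beside a background of 13.7% of the 12999 gene entries, each represented by its brightest probe set. This was *CG14495*, next to *Muc55B*, with 7.23 ± 0.16 (SD, n = 3) in wild type against 9.27 ± 0.20 in mutants, a rise of 2.04 (limma adjusted p = 0.000187).

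Beyond the 10 genes, 4 lists of related genes were counted, each gene by its brightest probe set. Among gene entries, 8.47% were called higher and 5.23% lower. Of 30 measured genes that encode other chitin-binding proteins of the peritrophin type, 8 were higher and 4 were lower in mutants, and the median difference was 0.33. The highest rises were in *obst-H*, of the obstructor family of chitin-binding proteins, from 1.85 ± 0.41 (SD, n = 3) to 4.94 ± 0.52 (SD, n = 3), by 3.09 (limma adjusted p = 0.000771), and in *CG17826*, by 2.88 (limma adjusted p = 0.000783). *CG6933* rose by 2.22 (limma adjusted p = 0.00218), *CG10140* by 2.20 (limma adjusted p = 0.0149) and *CG7017* by 2.20 (limma adjusted p = 0.0431). All 5 were at a wild-type mean under 2.60, at the low end. *CG4835* fell by 3.98 on the log2 scale, from 6.63 ± 0.36 (SD, n = 3) to 2.64 ± 0.53 (SD, n = 3; limma adjusted p = 0.000186). *CG10725* fell by 3.29 (limma adjusted p = 0.003), to 1.49 ± 0.17 (SD, n = 3) in mutants. The mutant levels of both genes lie at the low end, so the sizes of their falls are less certain than the falls themselves. *CG32302* fell by 2.53 (limma adjusted p = 0.0167). *Peritrophin-A*, itself dim, fell by 0.61 (limma adjusted p = 0.021).

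Several of these genes stand next to each other on chromosome arm 3L, and *Muc68E* is among them. Going along the arm, *CG7252* was not called, *CG17826*, beside it, was called higher, *obst-G* and *CG7248* were not called, *CG11570* was higher by 1.10 (limma adjusted p = 0.0158), *Muc68E* followed after 2 annotated genes, and *CG14125* after 1 more. *CG43896*, directly after *CG14125*, was not called. *CG14125* was bright in both genotypes and rose from 10.69, 10.65 and 11.15 to 12.18, 12.75 and 12.19, by 1.54 (standard error 0.21, limma adjusted p = 0.00355). The gene between *Muc68E* and *CG14125*, *CG42397*, had a difference of 0.51 (limma adjusted p = 0.0708). Neighbours also differed in direction elsewhere on 3L. *CG10725* fell and *CG10140*, beside it, rose, and *CG32302* fell while *obst-I*, beside it, rose by 1.45 (limma adjusted p = 0.0294). *CG14125*, *CG11570*, *obst-I* and the genes not called in this stretch were named after their values were seen.

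**Figure D3:**
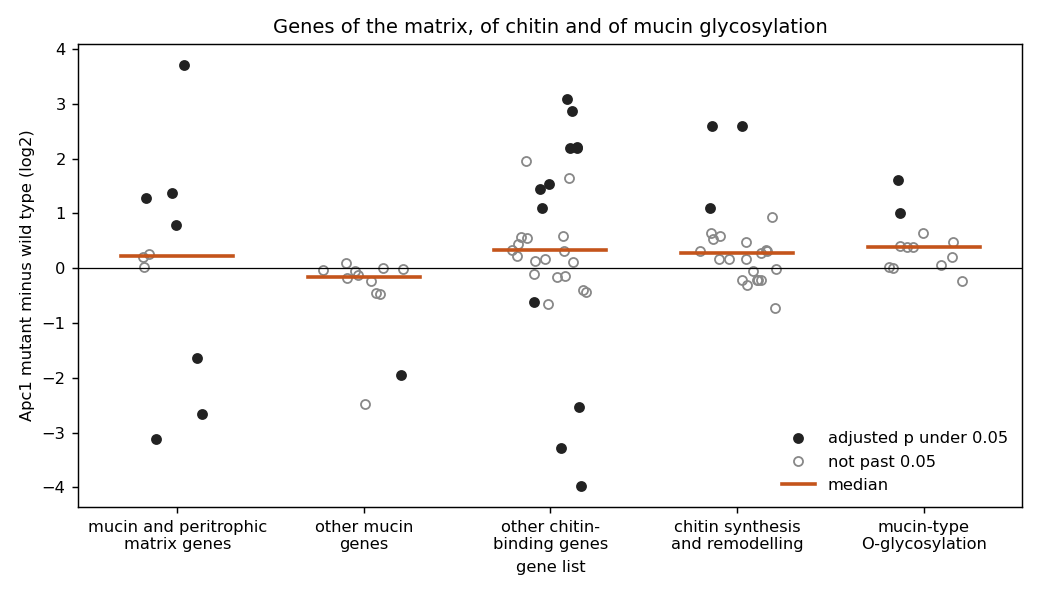
Difference between *Apc1* mutant and wild type on the log2 scale for each gene (points, spread sideways within a list) of the 10 mucin and peritrophic matrix genes and of 4 related lists, each gene by its brightest probe set. Filled points have an adjusted p under 0.05 and lines mark medians, which run from -0.15 for the other mucins to 0.38 for the O-glycosylation genes. The other chitin-binding genes spread from -3.98 to 3.09.

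Of 12 other mucin and mucin-related genes, 11 did not pass the test. *Muc68Ca* was the exception, here by the brightest of its 3 probe sets. It fell from 5.12 ± 1.06 (SD, n = 3) to 3.17 ± 0.20 (SD, n = 3), with a log2 difference of -1.95 (limma adjusted p = 0.0384). This call was kept without wild type replicate 1 and lost in the other 5 fits with 1 array left out. *Muc68D*, named after its values were seen, stood at 11.31 ± 0.24 (SD, n = 3) and at 11.41 ± 0.37 in mutants (95% interval of the difference -0.40 to 0.59, limma adjusted p = 0.825). Of the 12, 6 lay under 2.60 on every array.

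Among 23 genes for the synthesis and remodelling of chitin, 3 were called, all higher in mutants. *Gfat1*, which catalyses the first step of the hexosamine pathway that supplies the building block of chitin, rose from 6.06, 5.23 and 6.20 to 8.36, 8.28 and 8.66, by 2.60 (limma adjusted p = 0.000894). The dimmer of its probe sets rose by 0.60. *Cht4*, of the chitinase family, rose from 6.33, 5.84 and 6.41 to 8.90, 8.25 and 9.22, by 2.60 as well (limma adjusted p = 0.00105). *Cht12*, of the same family, rose by 1.10 (limma adjusted p = 0.0191). *Chs2*, the chitin synthase of the gut, was at 9.09 ± 0.29 (SD, n = 3) and 9.67 ± 0.14 (SD, n = 3), a difference of 0.58 that did not pass (limma adjusted p = 0.0692). Of 12 measured genes for mucin-type O-glycosylation, the attachment of sugars to serine and threonine, 2 were higher. *Pgant3*, a transferase of the first sugar, rose by 1.62 (limma adjusted p = 0.00281) and *tgy* by 1.01 (limma adjusted p = 0.0128). *Pgant4*, known from the larval gut for its part in the secretion of the peritrophic matrix, had a difference of 0.40 (95% interval -0.37 to 1.18, limma adjusted p = 0.509).

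The tissue was checked against markers, whose levels were summed on the linear scale. Enterocyte markers were present on all arrays, with sums of 8100 to 10900 in wild type and 5970 to 6700 in mutants. The sums follow the bright trypsin genes *alphaTry* and *betaTry*, the 2 of 6 that were called, which fell by 0.53 and 2.04 on the log2 scale. *Myo31DF* and *nub* were at differences of 0.47 and 0.53, not called but with no overlap between the genotypes, and the median of the list was 0.04. The markers of the copper cell region, the acid-secreting part of the midgut, went from 469 to 976 in wild type to 70.5 to 82.4 in mutants, with 3 of 4 lower. *Vha100-4* was between 1.39 and 1.95 and *lab* between 2.10 and 2.26 on the mutant arrays, at the low end. Progenitor markers went from 96.7 to 105 up to 156 to 162 (3 of 6 higher) and enteroendocrine markers from 1100 to 1230 up to 2060 to 2550 (5 of 7 higher, and 1 lower). The part of these shifts in the results for the matrix genes was not tested. No marker of the cardia was on the lists, so a different share of cardia in the samples was not tested. Markers of foregut and tracheal cuticle summed to 74.5 to 149 in wild type and 62.1 to 69.7 in mutants (0 of 8 called), those of the hindgut to 70.5 to 103 and 56.0 to 66.9 (0 of 4 called) and those of visceral muscle to 6060 to 7470 and 6080 to 7330 (1 of 6 called, lower). Fat body markers summed to 962 to 3500 in wild type and 139 to 886 in mutants (0 of 7 called), Malpighian tubule markers to 276 to 690 and 127 to 223 (1 of 5 called, lower), and ovary and eggshell markers to 41.2 to 206 and 37.6 to 39.8 (0 of 10 called). Wild type replicate 2 was the highest array for the fat body, tubule, ovary, foregut and tracheal cuticle, and visceral muscle lists. For the hindgut list it was level with wild type replicate 3, at 103. Without wild type replicate 2, *Peritrophin-15a*, *Peritrophin-15b*, *Muc18B*, *Muc55B*, *Muc68E* and *Mur29B* were still called. *Mur18B* was then not called, at a log2 difference of -1.46 (limma adjusted p = 0.0873). Its call was lost in 5 of the 6 fits with 1 array left out, so the loss is not particular to this array. *Apc1* itself stood at 6.36 ± 0.41 (SD, n = 3) and at 6.49 ± 0.41 in mutants (limma adjusted p = 0.795), so its transcript level does not check the labels.

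**Figure D4:**
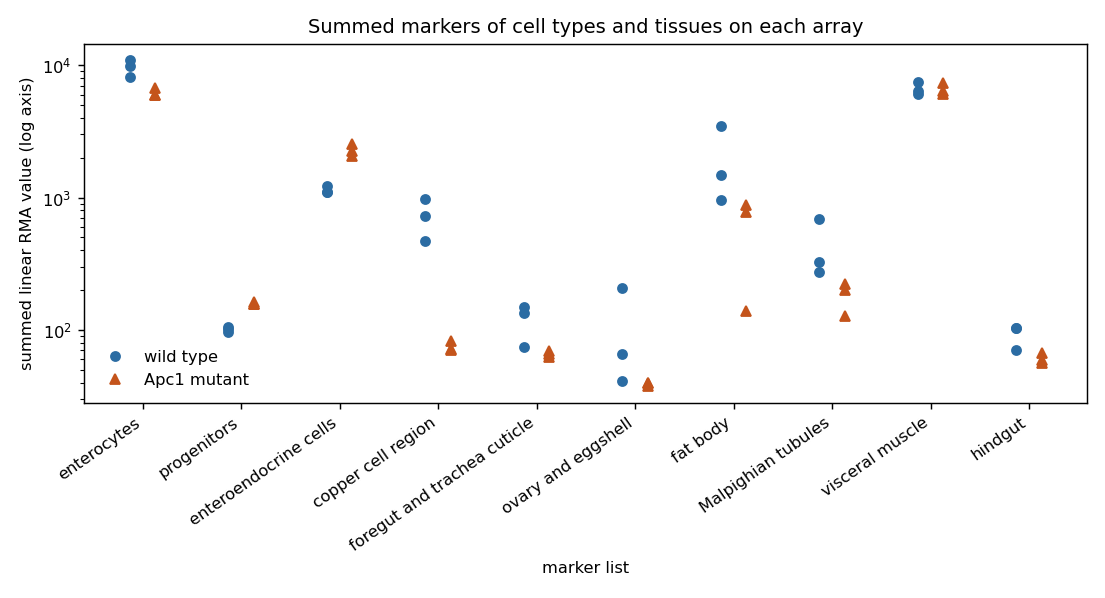
Summed marker levels (linear RMA values, log axis) of 10 cell types and tissues on each array, with circles for wild type and triangles for *Apc1* mutants. The copper cell region sums of the mutants, 70.5 to 82.4, lie below those of wild type, 469 to 976, and wild type replicate 2 is the highest array for fat body, at 3500.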

How the data were processed

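Whole midguts of wild-type and *Apc1* mutant females were hybridized to Drosophila Affymetrix arrays, 3 per genotype. The values deposited by the authors are log2 values, obtained from the scans by RMA normalization and given for every probe set on each array. The submitters' processing notes also name MAS5, and the background correction is not given in the sources used here. The table's columns of fold changes, p-values and group summaries were not used.

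Of 18952 probe sets, 183 Affymetrix controls were left out. RefSeq accessions, then symbols or synonyms, gave 14123 probe sets 1 gene name, 669 several and 3977 none. All 18769 were tested in R 4.3.3 with limma 3.58.1 (lmFit, then eBayes with no trend), and p-values were adjusted by the Benjamini-Hochberg method. Intervals are 95%. The fit was tested on simulated data with independent normal noise and changes of a fixed size. That test cannot show how effects shared across an array, or RNA of other tissues, act on the calls. Figures were made with matplotlib 3.10.9.

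The 10 genes and all lists were chosen with earlier results of these data known, and the lists come from general knowledge, so their counts are descriptions. *Muc11A*, *CG14645* and *reb* share a probe set with another gene, and *Pgant11*, *Pgant13* and *C1GalTB* were matched to none, so these were not counted. In each related list, up to 4 called genes in each direction were named, with ties, and *Chs2* and *Pgant4*. Labels do not say whether samples came from separate cultures, so p-values measure only the spread between these samples. The number of arrays limits the precision. No sequences and no genome coordinates are shown, since the table names no build. The alternatives were 1 value per gene, array centring, quantile normalization, leaving out probe sets with a mean under 5, array weights, a robust eBayes fit with trend, a 2-fold threshold, the replicate number as a block, and leaving out each array.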

Additional observations from a re-analysis of the deposited data

How the results depend on the processing

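*Peritrophin-15a*, *Peritrophin-15b*, *Muc18B*, *Muc55B*, *Muc68E* and *Mur29B* kept their direction and an adjusted p under 0.05 under every alternative in which they were tested. *Mur18B* kept its direction under all 13 and its call under 8. The 4 probe sets called higher became 2 with probe sets with a mean under 5 left out, because *Muc18B* and *Muc55B* were then not tested. They became 3 with the 2-fold threshold, which *Muc68E* did not pass, at 1.73-fold. With 1 array left out, 4 were called higher in each of the 6 fits and 2 to 3 lower. Reversals occurred only for values that were not called. With 1 array left out, *Crys* ranged from -0.47 (without wild type replicate 2) to 0.75, and it was -0.12 without *Apc1* mutant replicate 3. *Muc26B* ranged from -0.10 (without wild type replicate 3) to 0.15, with -0.01 without *Apc1* mutant replicate 1 and -0.05 without *Apc1* mutant replicate 3, and the second probe set of *Muc96D* ranged from -0.06 to 0.11, being -0.06, -0.03 and -0.04 without these same arrays. *Apc1* ranged from -0.10 (without wild type replicate 2) to 0.32, and was -0.09 without *Apc1* mutant replicate 3.

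Over all probe sets, the 2072 calls became 942 with a 2-fold threshold and 1085 (without *Apc1* mutant replicate 3) to 1736 with 1 array left out, with 1200 and 1281 without *Apc1* mutant replicates 1 and 2. The other mucins had 1 call, 2 after quantile normalization, 0 with trend and robust estimation, and 0 to 3 with 1 array left out. The 12 calls of the other chitin-binding genes became 3 with a mean under 5 left out, where 5 were tested, and 8 to 13 with 1 array left out. The 3 of chitin synthesis became 5 after quantile normalization and 2 to 4 with 1 array left out, and the 2 of O-glycosylation 1 to 2. The cause of these changes was not tested, apart from the fewer genes tested. The labels do not say whether same-numbered samples share anything beyond the number. Their deviations from the group means correlated at 0.13, 0.20 and 0.02, and 5 of 6 samples correlated best with their own number. With the replicate number as a block, 1849 probe sets were called, 4 of the 11 higher and 3 lower.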
